A study of Mus musculus with 4 samples.

Results

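Mex3a, Mex3b, Lin28a, Lin28b, Igf2bp1, Igf2bp2, Igf2bp3, Hmga1, Hmga2 and Msi1 encode RNA-binding and chromatin proteins that are best known from embryonic and stem cells. These 10 genes, of 29224 in the tables, were taken by their symbols. They were selected on their measured difference between the groups compared here, so their fold changes and calls are given as a description, without p-values. RNA was sequenced from P5 cortical astrocytes, which had been sorted with magnetic beads against GLAST, a glutamate transporter of the astrocyte surface. There were 2 libraries from Ezh2 f/f mice, which carry floxed alleles of Ezh2, the H3K27 methyltransferase of the Polycomb repressive complex 2. Another 2 libraries came from Ezh2 cKO mice, which carry the same floxed alleles and a Cre recombinase driven by Aldh1l1, an astrocyte gene. The labels call these libraries W and C with a number, and the tables call them WT and CKO. Cre acts only where Aldh1l1 is or was active, so a cell type without it keeps Ezh2. The sex of the mice, the number of animals behind a library and any treatment are not given in the sources used here.

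LIN28A and LIN28B bind the precursors of let-7 microRNAs and block their maturation. Mature let-7 in turn pairs through its seed with mRNAs of Lin28, Igf2bp and Hmga2. LIN28 and let-7 thus keep each other low, and LIN28 prevails early in development. IGF2BP proteins bind and stabilize mRNAs, HMGA proteins bend AT-rich DNA, MSI1 represses translation in neural stem cells, and MEX3 proteins are RNA-binding ubiquitin ligases. In the fetal cortex Lin28b, Igf2bp1 and Hmga2 are known as genes of early neural progenitors.

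The sequences below are the mature let-7 family of the mouse, shown because 7 of the 10 genes hold a match to its common seed, as given below. They are from RefSeq (GRCm38.p6), and capitals mark the seed, bases 2 to 8. Of the 11 members, 10 share the seed GAGGUAG and 1, let-7j, has GAGGUAU.
mmu-let-7a-5p: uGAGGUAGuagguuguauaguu
mmu-let-7b-5p: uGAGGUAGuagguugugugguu
mmu-let-7c-5p: uGAGGUAGuagguuguaugguu
mmu-let-7d-5p: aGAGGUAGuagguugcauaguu
mmu-let-7e-5p: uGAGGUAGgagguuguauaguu
mmu-let-7f-5p: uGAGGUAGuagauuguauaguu
mmu-let-7g-5p: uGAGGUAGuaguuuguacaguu
mmu-let-7i-5p: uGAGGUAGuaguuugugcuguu
mmu-miR-98-5p: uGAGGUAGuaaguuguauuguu
mmu-let-7j: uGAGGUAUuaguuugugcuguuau
mmu-let-7k: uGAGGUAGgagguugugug

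The miR-125 family, known as another developmental timer and made partly from the same clusters as let-7, has a different seed, CCCUGAG, in capitals here.
mmu-miR-125a-5p: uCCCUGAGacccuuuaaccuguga
mmu-miR-125b-5p: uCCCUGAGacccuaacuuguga

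The complement of the let-7 seed, CTACCTC, was searched on the transcribed strand of the longest 3′ untranslated region (UTR) of each gene in GENCODE M21. It occurred in 9.18% of 20659 UTRs of at least 50 bases, which had a median length of 988 bases. Of the 10 genes, 7 held it, with 17 matches in all. Lin28b, Igf2bp1 and Hmga2 had 4 matches each, Lin28a had 2, and Igf2bp2, Igf2bp3 and Hmga1 had 1 each. Mex3a, Mex3b and Msi1 had none in these windows. The UTRs are long, from 1183 bases in Hmga1 to 6337 bases in Igf2bp1, and longer UTRs hold more matches by length alone. Among all UTRs within 25% of the same length, the share with a match was 32.1% for Igf2bp1, 23.6% for Lin28b, 15.9% for Hmga2, 14.6% for Lin28a and 8.10% for Hmga1.

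The match nearest to the stop codon is shown for each gene that has one, with the match in capitals, so that the bases around it can be compared. Coordinates are on GRCm38, and each line reads along the transcript.
Lin28a, chr4:134005189-134005211, minus strand: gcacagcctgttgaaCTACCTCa
Lin28b, chr10:45381022-45381044, minus strand: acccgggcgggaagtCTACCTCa
Igf2bp1, chr11:95961778-95961800, minus strand: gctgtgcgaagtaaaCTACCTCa
Igf2bp2, chr16:22059473-22059495, minus strand: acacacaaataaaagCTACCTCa
Igf2bp3, chr6:49086787-49086809, minus strand: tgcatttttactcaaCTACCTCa
Hmga1, chr17:27563277-27563299, plus strand: tcctctgttcacaaaCTACCTCt
Hmga2, chr10:120364224-120364246, minus strand: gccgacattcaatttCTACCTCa

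In 6 of these 7 the match was followed by an A, the base that lies opposite the first base of let-7 and is known to strengthen pairing. The exception was Hmga1. Over all matches of a gene, an A followed 1 of 4 in Lin28b, 1 of 4 in Hmga2, 3 of 4 in Igf2bp1 and 2 of 2 in Lin28a. The share of matches followed by an A was not computed over all UTRs. In Lin28b the nearest match was at base 36 after the stop codon and in Hmga2 at base 58.

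The complement of the miR-125 seed, CTCAGGG, occurred in 13.3% of all UTRs and in 5 of the 10 genes, with 6 matches. Among UTRs within 25% of the same length the share was 31.1% for Lin28b, 30.3% for Mex3a, 24.4% for Lin28a, 20.2% for Igf2bp3 and 18.2% for Msi1. Msi1 had 2, and Mex3a, Lin28a, Lin28b and Igf2bp3 had 1 each. The matches in Mex3a and the nearer one in Msi1 are shown because these genes had no let-7 match.
Mex3a, chr3:88539565-88539587, plus strand: cccctccccctccccCTCAGGGg
Msi1, chr5:115454908-115454930, plus strand: gaaagcaaagggcttCTCAGGGa

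A match of 7 letters is a description of the sequence and not a tested site. Mature microRNAs were not measured in these libraries.

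**Figure D1:**
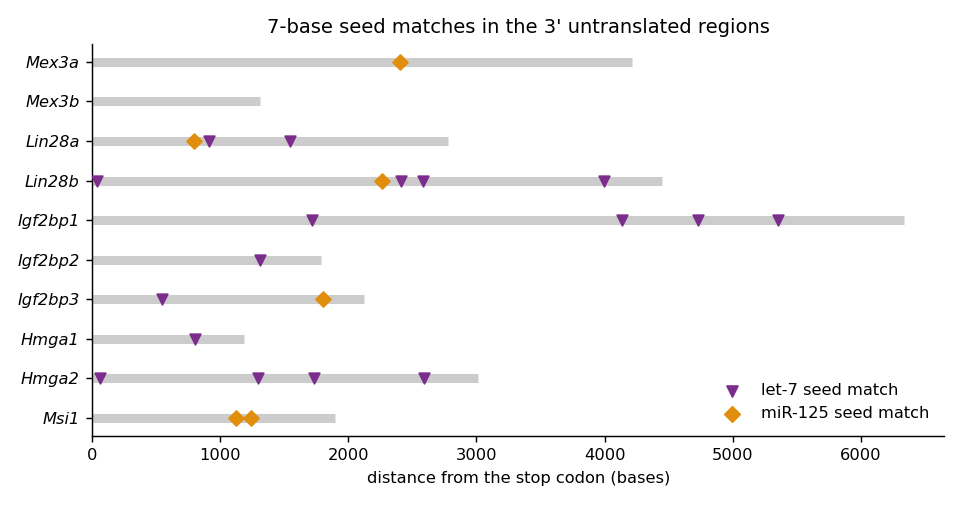
Positions of 7-base matches to the let-7 seed (purple triangles) and the miR-125 seed (orange diamonds) along the longest annotated 3′ UTR of each of the 10 genes (grey bars), as distance in bases from the stop codon. The 17 let-7 matches lie in 7 genes, with 4 each in Lin28b, Igf2bp1 and Hmga2 and none in Mex3a, Mex3b or Msi1.

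Total counts ranged from 16273308 to 17522152 per library, and 3 counts, the limit that a count of 0 allows, were 0.171 to 0.184 CPM (counts scaled to library size). These limits cover counting error only. Replicates varied beyond counting noise (chi-square per degree of freedom 9.70 for Ezh2 f/f, 6.10 for Ezh2 cKO). Each library was treated as a sample, although the labels do not say that libraries came from separate animals. Ezh2, the targeted gene, had counts of 434 and 327 for Ezh2 f/f, against 211 and 164 for Ezh2 cKO, so its log2 fold change was −1.11 ± 0.16 (SE). Every fold change takes Ezh2 cKO over Ezh2 f/f, so negative values are lower in Ezh2 cKO.

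Of the 10 regulators, 8 had enough counts to be tested, and all 8 were lower in Ezh2 cKO than in Ezh2 f/f. Across all 16793 genes tested, 33.6% were called lower and 34.7% higher (edgeR, adjusted p under 0.05), or 68.4% in either direction. No regulator was higher by edgeR, by DESeq2 or by limma, nor at an unadjusted p. With a fold change of at least 2 as well, 6 of the 8 were lower, against 14.0% of all genes. In each of the 8 both Ezh2 cKO libraries lay below both Ezh2 f/f libraries, as in 41.5% of all genes, while the reverse order was seen in 42.8%. The genes were chosen on this contrast, so nothing is read from these counts. Lin28a and Hmga2 did not pass the filter on low counts, and without the filter neither was called.

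The median log2 fold change of the 8 tested was −1.65, and that of all genes was 0.02. Igf2bp1 was 11.4-fold and Mex3a 10.7-fold lower, Igf2bp2 4.44-fold and Msi1 4.12-fold, Hmga1 2.38-fold and Mex3b 2.27-fold, and Igf2bp3 1.89-fold and Lin28b 1.65-fold. Ordered from the lowest fold change among 16793 genes, Igf2bp1 was at rank 166, Mex3a at 179, Igf2bp2 at 499 and Msi1 at 555, while Lin28b was at 3703.

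**Figure D2:**
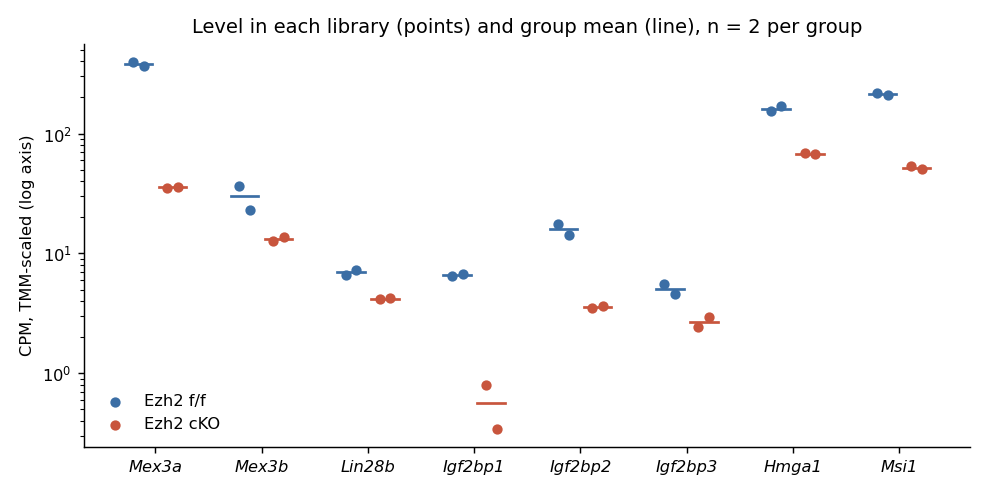
CPM of the 8 tested regulators (log axis) in each Ezh2 f/f library (blue points) and Ezh2 cKO library (red points), with lines at the means of 2 libraries. In every gene both red points lie below both blue points, and the gap is widest in Mex3a, from 380 to 35.6 CPM, and in Igf2bp1, from 6.58 to 0.569 CPM.

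Markers of other cell types differed between the same libraries. GLAST sorting should enrich astrocytes. Yet in Ezh2 f/f the neuronal tubulin gene Tubb3 had a mean of 1878 FPKM (counts scaled to gene length and library size). Slc1a3, which encodes GLAST, had 11.4 FPKM there. In Ezh2 cKO the means were 1215 FPKM for Tubb3 and 36.3 FPKM for Slc1a3, whose log2 fold change was 1.59. Fewer cells of a type and less RNA per cell cannot be told apart in bulk RNA. The counts of markers below stand beside 33.6% of all genes called lower and 34.7% called higher. Of the newborn neuron markers 6 of 8 were lower, with a summed FPKM of 2282 and 2327 in Ezh2 f/f, against 1589 and 1588 in Ezh2 cKO. Among them Tubb3, which held most of that sum, fell by 0.71 on the log2 scale (adjusted p = 2.29e-07, edgeR). Stmn2, a tubulin-binding growth cone gene, rose by 0.47, and Neurod1 (0.04) was not called. The less abundant Igfbpl1 (−3.31), Sox11 (−2.99), Sox4 (−2.31), Dcx (−1.49) and Nhlh1 (−1.43) fell by more than Tubb3. Intermediate progenitor markers were lower in 3 of the 5 tested, with sums of 31.7 and 31.3 FPKM against 18.4 and 20.3. Of their most abundant genes, Insm1 fell by 2.57 and Gadd45g was at 0.02 and not called. Eomes (−3.46) and Neurog2 (−2.07) also fell, and Btg2 (−0.14) was not called. Neurog1 had 1 count in all 4 libraries together. Cycling cell markers were lower in 7 of 8, with sums of at most 28.1 FPKM in Ezh2 f/f, the replicates being within 1 FPKM, against 14.7 and 14.4. Their most abundant genes, Mcm5 and Cdk1, fell by 1.19 and 0.92. Of 10 neural progenitor markers, 5 fell, among them Nes, Pax6 and Vim (−1.04), and 4 rose, among them Fabp7 (0.91), the most abundant, and their sum was higher in Ezh2 cKO, at 463 and 410 FPKM against 258 and 286.

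Astrocyte markers rose in 10 of 12, from sums of 131 and 142 FPKM to 625 and 566, with Aldoc (log2 fold change 1.79) and Atp1b2 (1.47) the most abundant and Gfap at 3.77, whereas Aldh1l1 (−0.15) and Sox9 (−0.06) were not called. Mature neuron markers rose in 6 of 8, from 182 and 178 FPKM to 1095 and 1073, with Thy1 at 3.00 and Camk2a at 3.04. Oligodendrocyte precursor, oligodendrocyte and microglia markers rose in 6 of 6 each, with sums of 51.2 and 51.1 against 179 and 157, 13.3 and 16.6 against 146 and 128, and 24.3 and 24.9 against 80.9 and 73.1 FPKM. Their most abundant genes were Olig1 (1.97) and Olig2 (0.61), Mbp (3.44) and Cnp (2.93), and C1qa (1.05) and Csf1r (1.47). The oligodendrocyte gene Mobp had 0 and 6 counts in Ezh2 f/f. Endothelial sums overlapped, at 101 and 96.1 against 106 and 91.9 FPKM, mural sums were 63.3 and 69.4 against 120 and 105, with 3 of 6 mural markers higher (Vtn at 0.54 and Rgs5 at 1.47 the most abundant) and 1 lower (Pdgfrb at −0.55), and erythroid sums were 458 and 551 against 602 and 608 (Hba-a1 0.04, not called, and Hbb-bs 0.32). These shifts separate the same libraries as the regulators do, and their part in the regulators' values was not tested.

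Of the LIN28 proteins, which hold let-7 back, Lin28b was the form with measurable RNA. Lin28b (deposited position chr10:45252716-45362491, minus strand) had counts of 113 and 115 for Ezh2 f/f, against 73 and 74 for Ezh2 cKO, or 6.96 ± 0.50 and 4.20 ± 0.092 CPM (SD, n = 2). It had the smallest change of the 8, with a log2 fold change of −0.73 ± 0.21 (SE). The replicates of each group were close, and the lowest Ezh2 f/f library, at 6.61 CPM, was above the highest Ezh2 cKO library, at 4.26 CPM. Lin28a (chr4:133730641-133746152, minus strand) had counts of 1 and 4 for Ezh2 f/f, against 0 and 1 for Ezh2 cKO. These lie at or about the floor of 3 counts, so a difference in Lin28a was not detectable at this depth. Lin28b made up between 92.7% and 100% of the FPKM of the pair in the 4 libraries.

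All 3 IGF2BP genes were lower, by unequal amounts. Igf2bp1 (chr11:95847989-95896766, minus strand), the form known from fetal neural stem cells, had counts of 110 and 106 for Ezh2 f/f, against 14 and 6 for Ezh2 cKO. Its mean went from 6.58 ± 0.22 to 0.569 ± 0.316 CPM, a log2 fold change of −3.51 ± 0.34, the largest of the 8 and the least precise. The Ezh2 f/f libraries were nearly equal, whereas the Ezh2 cKO libraries rest on few counts and differ from each other by more than 2-fold. Without replicate 1 of Ezh2 cKO the log2 fold change was −4.22, and without replicate 2 it was −3.04.

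Igf2bp2 (chr16:21877759-21982049, minus strand), which is also expressed in adult tissues, was the most abundant of the 3. It had counts of 300 and 223 for Ezh2 f/f, against 62 and 63 for Ezh2 cKO, or 15.9 ± 2.38 and 3.57 ± 0.084 CPM, with a log2 fold change of −2.15 ± 0.19. The spread lay in the Ezh2 f/f libraries, and the lower of these was still at 14.2 CPM against 3.63 CPM in the higher Ezh2 cKO library. On the log2(FPKM + 1) scale, which compresses genes of low FPKM, the change was −1.04.

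Igf2bp3 (chr6:49062157-49191891, minus strand), an oncofetal form, had 95 and 72 counts against 43 and 51, or 5.07 ± 0.69 and 2.69 ± 0.36 CPM. Its log2 fold change was −0.92 ± 0.25, or −0.78 and no longer called when Ezh2 cKO replicate 1 was left out. Igf2bp3 overlaps Malsu1 on the other strand by 1529 bases. Malsu1 had 432, 360, 283 and 254 counts, and the use of strand in counting is not given in the sources used here, so reads of the pair may not be fully separated.

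The composition of the IGF2BP family differed between the groups, as did its sum, which was 3.63 and 3.07 FPKM for Ezh2 f/f, against 0.871 and 0.922 for Ezh2 cKO. Igf2bp1 took 17.9% and 21.9% of the family's FPKM in Ezh2 f/f, against 9.58% and 4.03% in Ezh2 cKO. Igf2bp3 took 18.3% and 17.7%, and then 34.9% and 40.6%. Igf2bp2 took 63.8% and 60.4%, and then 55.5% and 55.3%. The shares add up to 100% in each library, so they depend on each other, and nothing is read from their order.

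Hmga1 (chr17:27775471-27782648, plus strand) encodes the HMGA protein that is the more widely expressed in dividing cells. It had the highest FPKM of the 10 regulators in both groups. It had counts of 2646 and 2653 for Ezh2 f/f, against 1209 and 1169 for Ezh2 cKO, or 162 ± 9.82 and 67.9 ± 0.78 CPM, with a log2 fold change of −1.25 ± 0.09. The replicates, at 155 and 169 CPM and at 68.5 and 67.4 CPM, lay far closer to each other than the groups did. Hmga1b, a near-identical copy, had 298 and 314 counts against 148 and 113, and since reads of the copies may be split between them both values are uncertain. Hmga1 also overlaps AI413582 on the other strand by 102 bases, a gene whose counts went from 101 and 122 to 582 and 512, in the opposite direction.

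Hmga2 (chr10:120197180-120312374, minus strand), the fetal neural stem cell form, was barely detected. It had counts of 7 and 2 for Ezh2 f/f, against 3 and 0 for Ezh2 cKO, and the groups overlapped. No fold change is given for Hmga2, and a difference was not detectable at this depth. Hmga1 made up more than 99.9% of the FPKM of the pair in each library.

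Msi1 (chr5:115567658-115593757, plus strand), a marker of neural stem and progenitor cells, had counts of 3702 and 3318 for Ezh2 f/f, against 939 and 876 for Ezh2 cKO. Its level was 214 ± 3.95 and 51.8 ± 1.91 CPM, with a log2 fold change of −2.04 ± 0.09. The replicates were nearly equal in each group. Its paralogue Msi2, which binds similar RNA motifs and is expressed more widely, had 817 and 836 counts against 634 and 688, and fell by 0.42 ± 0.10 (adjusted p = 0.00264, edgeR). Msi1 took 89.0% and 87.7% of the FPKM of the pair in Ezh2 f/f, against 72.7% and 69.6% in Ezh2 cKO.

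Mex3a (chr3:88439702-88448703, plus strand), known as a marker of intestinal and neural progenitor cells, carried the largest part of the difference in reads. It had counts of 6722 and 5763 for Ezh2 f/f, against 625 and 621 for Ezh2 cKO, or 380 ± 18.9 and 35.6 ± 0.28 CPM. The log2 fold change was −3.41 ± 0.10, as large as that of Igf2bp1 but based on far more counts. Mex3a alone supplied 46.9% and 45.7% of the counts of the 10 regulators for Ezh2 f/f, against 19.6% for Ezh2 cKO replicate 1, with replicate 2 within 1 percentage point of it.

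Mex3b (chr7:82516541-82520723, plus strand), a related RNA-binding protein with a RING finger, had counts of 628 and 364 for Ezh2 f/f, against 226 and 237 for Ezh2 cKO. It had the widest relative spread between Ezh2 f/f replicates among the 8, at 36.7 and 23.1 CPM, against 12.8 and 13.7 CPM in Ezh2 cKO. The log2 fold change was −1.18 ± 0.18, and it was −0.81 without Ezh2 f/f replicate 1.

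Of the other MEX3 genes, which are not among the 10, 1 was called lower. Mex3d had 1540 and 1220 counts against 582 and 590, and fell by 1.32 ± 0.10 (adjusted p = 5.52e-08, edgeR). Mex3c, with 339 and 280 counts against 243 and 284, had a log2 fold change of −0.32 ± 0.15 and did not pass the threshold (adjusted p = 0.0664, edgeR). In FPKM, which allows a comparison between genes, Mex3a was 60.8% and 64.2% of the family in Ezh2 f/f, against 25.8% and 24.7% in Ezh2 cKO, where Mex3d was the most abundant at 42.6% and 41.6%. The sum of the family was 109 and 95.5 FPKM for Ezh2 f/f, against 24.2 and 26.1 for Ezh2 cKO.

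**Figure D3:**
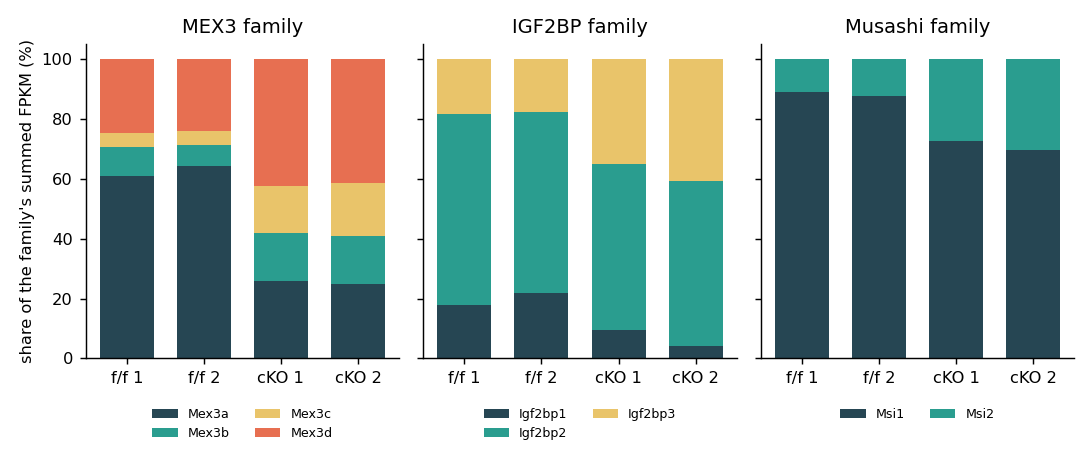
Share of the summed FPKM of the MEX3, IGF2BP and Musashi families (%) taken by each gene in each of the 4 libraries. Mex3a goes from 60.8% and 64.2% in Ezh2 f/f to 25.8% and 24.7% in Ezh2 cKO, Igf2bp3 from 18.3% and 17.7% to 34.9% and 40.6%, and Msi1 from 89.0% and 87.7% to 72.7% and 69.6%.

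Summed over the 10 regulators, the level was 189 and 184 FPKM in Ezh2 f/f, against 53.7 and 54.1 FPKM in Ezh2 cKO. In Ezh2 f/f the order by mean FPKM was Hmga1 (73.9), Mex3a (63.8), Msi1 (35.8), Mex3b (8.67), Igf2bp2 (2.08), Lin28b (0.745), Igf2bp1 (0.661), Igf2bp3 (0.603), Hmga2 (0.0386) and Lin28a (0.0379). The libraries of Igf2bp1 and Igf2bp3 overlapped, as did those of Hmga2 and Lin28a, and the other neighbours did not. In Ezh2 cKO the order was Hmga1 (32.9), Msi1 (9.20), Mex3a (6.34), Mex3b (4.06), Igf2bp2 (0.497), Lin28b (0.477), Igf2bp3 (0.339) and Igf2bp1 (0.0603), with Lin28a and Hmga2 again the lowest. Here Igf2bp2 and Lin28b overlapped, as did Hmga2 and Lin28a. Mex3a thus moved below Msi1, and Igf2bp1 moved below Igf2bp3, while Hmga1 stayed first. Among all genes Mex3a was at rank 844 by mean FPKM for Ezh2 f/f and at 6553 for Ezh2 cKO, and Hmga1 at 702 and 1700.

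Promoter sequence played no part in the choice of these genes. RefSeq windows of 300 bases around the start site (GRCm38.p6) were matched for 8 of the 10, and none was used here for Igf2bp1 and Msi1. Over 32851 such windows the median number of CpG dinucleotides was 7 and the upper quartile was 20. Igf2bp2 had 47, the windows of Hmga1 had 40 and 38, Mex3b had 27 and Igf2bp3 had 25, above that quartile, and Mex3a was at it with 20. Hmga2, Lin28a and Lin28b lay between the median and the quartile, with 12, 10 and 8.

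A list of 11 other genes held Mex3c, Mex3d, Msi2 and Hmga1b from the same families. Its other genes, Hmgb and Hmgn, are of separate high mobility group families. All 11 were tested, and 9 were lower and none higher by edgeR, also at an unadjusted p. Their median log2 fold change was −0.69. Among all genes 33.6% were lower and 34.7% higher. The HMGB proteins bend DNA like HMGA, and Hmgb3 had the largest change at −1.92 ± 0.09 (adjusted p = 7.57e-10), followed by Hmgb2 at −1.45 (4.15e-07) and Hmgb1 at −0.69 (1.51e-05), all from edgeR. The nucleosome-binding genes Hmgn1 (−1.27), Hmgn5 (−0.44) and Hmgn2 (−0.35) were lower with edgeR adjusted p-values of 2.81e-08, 0.0372 and 0.00348. Hmgn3 was at 0.13 and was not called (adjusted p = 0.306). Hmga1b was at −1.32 ± 0.17 (adjusted p = 9.95e-06). Hmgb1, Hmgn1 and Hmgn2 have many processed pseudogenes, so their counts are uncertain too.

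**Figure D4:**
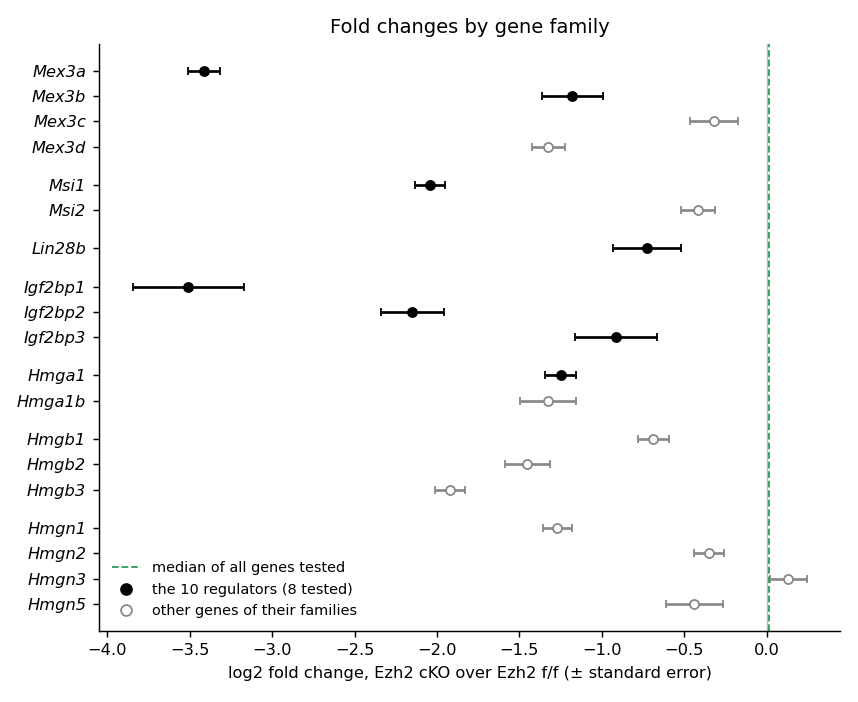
Log2 fold change, Ezh2 cKO over Ezh2 f/f, with its standard error, for the 8 tested regulators (filled black) and the other listed genes (open grey). The open grey genes include the Hmgb and Hmgn genes, which are of separate high mobility group families. The dashed green line is the median of all genes tested, 0.02. Mex3a and Igf2bp1 lie farthest to the left at −3.41 and −3.51, Hmgb3 leads the other genes at −1.92, and Hmgn3 alone lies above 0.

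The listed genes of let-7 processing moved in both directions. They mix genes that make let-7 with genes that bind, modify or degrade its precursors, and with the Argonautes. Their counts and median are therefore not a measure of let-7 production. Of 19 listed genes, all tested, 12 were lower and 5 higher, with a median of −0.70, beside 33.6% lower and 34.7% higher of all genes. The count of higher genes was 3 by DESeq2. Leaving out replicate 2 of Ezh2 f/f also gave 3, and leaving out replicate 1 of Ezh2 cKO gave 2. Dicer1, which cuts the let-7 precursor, had counts of 2192 and 2115 for Ezh2 f/f, against 862 and 881 for Ezh2 cKO, and fell by 1.40 ± 0.09 (adjusted p = 1.80e-08, edgeR). Its partner Tarbp2 fell by 1.34 (3.50e-08), and so did Hnrnpa1, which binds the let-7a precursor, by 1.14 (1.65e-08), although Hnrnpa1 has many pseudogene copies. Higher in Ezh2 cKO were the Argonaute genes Ago3, at 0.85 ± 0.15 (adjusted p = 0.000142, edgeR), and Ago2, at 0.46 (0.000636), and the helicase gene Ddx17 at 0.30 (0.00602).

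Of 25 known let-7 targets outside the 10 regulators, 12 were lower, 3 higher and 10 not called, with a median of −0.29, where 33.6% of all genes were lower and 34.7% higher. Leading the lower ones were Dicer1, itself such a target, Cdc25a, a phosphatase of the cell cycle, at −1.54 (adjusted p = 2.59e-07, edgeR), and Plagl2, a zinc-finger factor, at −1.51 (2.40e-06). The 3 higher genes were Ccnd1, which encodes cyclin D1, at 1.26 ± 0.16 (adjusted p = 8.82e-06, edgeR), and the Ras genes Hras and Nras, both at 0.24 (0.0251 and 0.0354). Without Ezh2 cKO replicate 1 the count of higher targets was 1.

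Of 15 listed transcripts that the 10 proteins are known to bind or regulate, 14 were tested, with 5 lower, 6 higher and a median of 0.10. Both counts are near the shares among all genes, 33.6% lower and 34.7% higher. H19, an imprinted RNA that IGF2BP proteins bind, fell by 2.42 ± 0.11 (adjusted p = 4.92e-10, edgeR), from 2035 and 2133 counts to 402 and 431. Mapt, the tau gene and a further IGF2BP ligand, fell by 0.72 (4.04e-07), and Myc, whose mRNA IGF2BP1 stabilizes, fell by 1.12 (2.38e-05). Robo3, which MSI1 binds, rose by 1.90 ± 0.19 (adjusted p = 6.78e-07, edgeR), Cd44, an IGF2BP ligand, rose by 1.68 (1.01e-05), and Numb, whose translation MSI1 is known to repress, rose by 1.05 ± 0.14 (1.59e-05). Numb had counts of 180 and 156 for Ezh2 f/f, against 377 and 366 for Ezh2 cKO. All of these fold changes are of RNA, and translation was not measured.

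**Figure D5:**
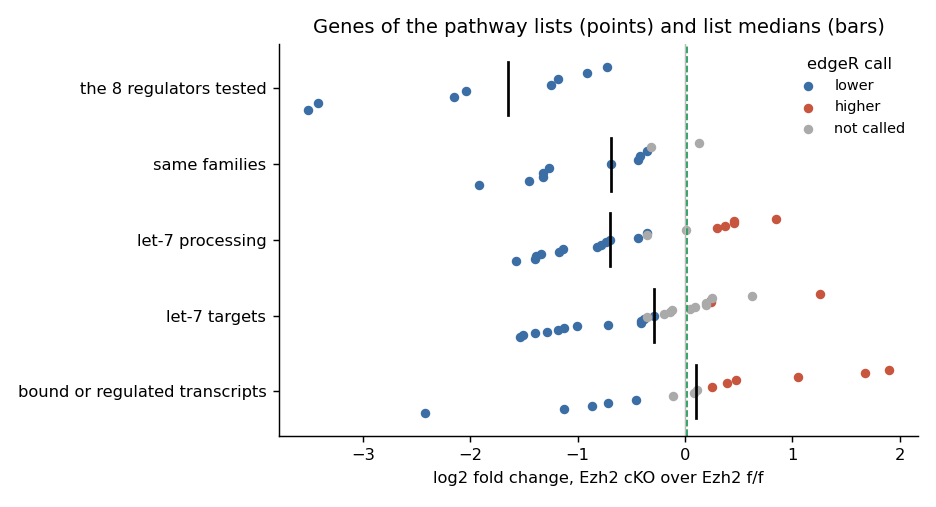
Log2 fold change, Ezh2 cKO over Ezh2 f/f, of each tested gene in the regulators and in the 4 lists of related genes (points coloured by edgeR call), with the list median as a black bar and the median of all genes, 0.02, as a dashed line. The medians are −1.65, −0.69, −0.70, −0.29 and 0.10 from top to bottom. The second row also holds the separate Hmgb and Hmgn families. The first 2 rows hold no gene called higher, from which nothing is read, because the regulators were chosen on this contrast and the lists with earlier results known.

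Of the let-7 and miR-125 loci, the host transcripts Mir100hg and Mir99ahg gave values, and hosts of the other loci were not looked up. Mir100hg is known as the host of a cluster with let-7a and miR-125b, but no hairpin was matched inside it here. Mir100hg had counts of 2061 and 1942 for Ezh2 f/f, against 1086 and 1099 for Ezh2 cKO, and fell by 0.97 ± 0.09 (adjusted p = 5.33e-07, edgeR). Mir99ahg, which spans the hairpins of miR-99a and let-7c, had 79 and 107 counts against 54 and 65, and fell by 0.74 ± 0.26 (adjusted p = 0.0188, edgeR). The let-7c hairpin Mirlet7c-1 itself had 0, 2, 2 and 3 counts, at or under the floor. Mir100hg and Mir99ahg were lower in Ezh2 cKO, as were the 8 regulators. These values are of host RNA only, and mature let-7 was not measured.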

How the data were processed

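RNA was sequenced from 2 Ezh2 f/f and 2 Ezh2 cKO libraries at P5. The authors deposited raw read counts and FPKM values per gene. Their processing notes name Bowtie2 2.2.3, TopHat2 2.0.12, HTSeq 0.6.0 and mm9, without roles, and strand use is not given in the sources used here. Of 29224 identifiers, 28799 were in GENCODE M21 (GRCm38) and 581 had its coordinates, so positions are printed as deposited. The deposited columns of the authors' own comparison (means, ratios, p-values and calls) were not used.

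Counts were filtered with filterByExpr in edgeR 4.0.16 (R 4.3.3), scaled by TMM (factors 0.967 to 1.04) and tested with the quasi-likelihood test, with group as the only term and Benjamini-Hochberg adjustment over 16793 genes. A call is an adjusted p under 0.05, and the common biological coefficient of variation was 0.0953. CPM are scaled by TMM, and levels between genes are in FPKM. An exact permutation test of 2 against 2 cannot go below 0.333. The labels do not say that libraries came from separate animals, so p-values measure the spread between these libraries. Alternatives used DESeq2 1.42.0 and limma 3.58.1. Seed matches, with the strand as transcribed, used 1 transcript per gene, the one with the longest 3′ UTR.

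The 10 regulators and all gene lists were chosen with earlier results of these data known. Named are all 10, every gene of lists of up to 12 genes, and of longer lists the 3 lower and 3 higher called genes with the smallest p. Of marker lists whose sum moved, the 2 genes with the highest mean FPKM are named. Slc1a3, Nes, Pax6, Gfap, Aldh1l1, Sox9, Pdgfrb and the overlapping genes were chosen after their values were seen. So were Igfbpl1, Sox11, Sox4, Dcx, Nhlh1, Neurod1, Eomes, Neurog2 and Btg2.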

Additional observations from a re-analysis of the deposited data

How the results depend on the processing

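The alternatives refit the libraries on which the regulators were chosen, so nothing is read from a shared sign. Over 11 alternatives, the tested regulators had 82 log2 fold changes, all 82 below 0. They ranged from −3.48 to −3.14 in Mex3a, −1.49 to −0.81 in Mex3b, −0.80 to −0.67 in Lin28b, −4.22 to −3.04 in Igf2bp1, −2.31 to −1.04 in Igf2bp2, −1.06 to −0.77 in Igf2bp3, −1.31 to −1.14 in Hmga1 and −2.08 to −1.85 in Msi1. Among all genes, 5043 of 16793 were lower with DESeq2, 5747 of 16793 with its size factors and 5590 of 29224 without a filter. With at least 50 counts on average 4708 of 12918 were lower. In limma 4591 of 13613 were lower on log2(FPKM + 1) and 4547 on log2(FPKM + 0.1). Higher were 4830 with DESeq2 and 4948 with limma on log2(FPKM + 0.1). The count of lower regulators was 8 with DESeq2, with its size factors, without a filter and with at least 50 counts on average. It was 5 of 5 tested in limma on log2(FPKM + 1) and on log2(FPKM + 0.1), whose filter of an FPKM of 1 in 2 libraries removed Lin28b, Igf2bp1 and Igf2bp3. It was 7 to 8 with a library left out, where the lone library of a group is assumed to vary like the other group. Igf2bp3 lost its call without Ezh2 cKO replicate 1. The let-7 processing genes called higher, 5 in the main test, were 3 with DESeq2 and with limma on log2(FPKM + 0.1), and 2 to 4 with a library left out, the lowest without Ezh2 cKO replicate 1 and 3 without Ezh2 f/f replicate 2. The higher let-7 targets, 3 in the main test, were 1 to 4 with a library left out, the lowest without Ezh2 cKO replicate 1. The cause of these losses was not tested. The replicate numbers are not said to pair libraries, and the deviations of the libraries numbered 1 correlated with r = 0.13 over 16793 genes. With the number as a replicate block, 8 regulators were lower, and 5599 genes were lower and 5795 higher, against 5650 and 5831 without it. Depth limits Lin28a and Hmga2, which only the test without a filter covered among the count tests, with neither called.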

Other observations

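Hbb-y, an embryonic globin gene, had counts of 7 and 9 for Ezh2 f/f, against 0 and 0 for Ezh2 cKO. The adult globin gene Hbb-bs had counts of 2465 and 2847 for Ezh2 f/f, against 3682 and 3415 for Ezh2 cKO, with a log2 fold change of 0.32 ± 0.11 (adjusted p = 0.0165, edgeR). Tut4, which adds uridines to let-7 precursors bound by LIN28, had counts of 987 and 556 for Ezh2 f/f, against 260 and 289 for Ezh2 cKO, and fell by 1.57 ± 0.18 (adjusted p = 3.88e-06, edgeR), whereas its paralogue Tut7 had 371 and 296 counts against 458 and 459 and rose by 0.37 ± 0.13 (adjusted p = 0.0191). Tut4 and Mex3b were both higher in Ezh2 f/f replicate 1 than in replicate 2. These genes were chosen after their values were seen.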
